A study of Mus musculus with 32 samples.

Results

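The genes of 6 membrane proteins, Lrtm1, Mrgprh, Igsf1, Itgb6, Slc17a7 and Slc36a2, were followed through the atria of mice carrying the Mst1 transgene, the dnPI3K transgene, or both. These 6 of 19938 named genes were chosen by their log2 signal in the singly transgenic genotypes, where it fell against Ntg, so their levels there are a description and are given without a p-value. The arrays hold the left and right atrium of 16 mice, with 4 animals of each genotype on a combined C57BL/6 and FVB/N background and 1 array per atrium, 32 in all. Ntg mice carried no transgene, Mst1 mice the kinase mammalian sterile 20-like kinase 1, dnPI3K mice a dominant negative phosphoinositide 3-kinase, and dnPI3K-Mst1 mice both. Age, sex, the promoter of either transgene and the cells it is active in are not given in the sources used here, nor is the subunit that the dnPI3K transgene carries. Levels are log2 signals, in which a step of 1 is a 2-fold change, and they do not allow one gene to be set against another.

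PI3K passes growth factor and insulin signals on to AKT and favours the growth and survival of heart muscle cells. Mst1, the product of Stk4, belongs to the Hippo kinase cascade, which holds back the coactivator YAP and its TEAD partners and can promote the death of heart muscle cells. The 6 genes have no shared pathway: they are a leucine-rich repeat protein, an orphan receptor, an immunoglobulin domain protein, an integrin chain and a pair of transporters.

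Without the Mst1 transgene Stk4 averaged 7.54 ± 0.11 (SD, n = 4, Ntg) and 7.61 ± 0.13 (dnPI3K), and with it 8.25 ± 0.09 (Mst1) and 8.33 ± 0.11 (dnPI3K-Mst1), with no overlap between animals with and without the Mst1 transgene. The PI3K gene Pik3ca averaged 9.11 ± 0.25 (Ntg), 9.73 ± 0.30 (Mst1), 10.04 ± 0.09 (dnPI3K) and 10.27 ± 0.13 (dnPI3K-Mst1). Its Mst1 animals (9.28 to 9.95) overlapped the dnPI3K animals (9.90 to 10.11), so it does not mark the dnPI3K transgene as Stk4 marks Mst1. All 12 markers of atrial heart muscle cells averaged above the level used as a filter on low genes, 4.48, over the 32 arrays. Against Ntg, 5 were lower in Mst1, and 6 were lower and 1 higher in dnPI3K-Mst1. Of all tested genes 14.2% were lower in each of these comparisons, and 12.6% and 16.4% were higher. The array medians ran from 5.51 to 5.68, and 4 arrays correlated with the rest at under 0.97, the lowest being 0.949. The level of Bmp10, an atrial gene known from the right atrium of adult mice, lay between 11.4 and 12.8 on 1 array of each animal and between 3.77 and 6.64 on the other. The Bmp10-high array was labelled left in 13 animals and right in 3 (Ntg 1301, Ntg 1662 and Mst1 1839). Results by atrium are therefore given by label and by Bmp10.

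Promoter windows of 250 bases before the start site, from RefSeq on build GRCm38.p6, were at hand for 5 of the 6 genes, 8 windows in all. Since the genes fell together, the windows were searched on both strands for 8 short motifs. The 4 windows shown each have a match, with its bases in capitals. Lrtm1 (chr14:29017958-29018207, plus strand) holds TGANTCA, the AP-1 motif, 119 to 113 bases before the start. Mrgprh (chr17:12875784-12876033, plus strand) holds GGAATG, the TEAD core, as its reverse complement, 67 to 62 bases before the start. One of 3 Igsf1 windows (chrX:49795365-49795614, minus strand) holds the TEAD core at 133 to 128 bases and AGGTGT, the T-box core, as its reverse complement at 100 to 95 bases. One of 2 Itgb6 windows (chr2:60673694-60673943, minus strand) holds the T-box core as its reverse complement at 61 to 56 bases before the start.
Lrtm1: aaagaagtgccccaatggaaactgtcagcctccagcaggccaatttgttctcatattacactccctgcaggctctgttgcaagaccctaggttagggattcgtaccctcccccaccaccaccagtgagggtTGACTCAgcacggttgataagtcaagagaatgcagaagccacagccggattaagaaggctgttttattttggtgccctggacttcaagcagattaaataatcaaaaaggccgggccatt
Mrgprh: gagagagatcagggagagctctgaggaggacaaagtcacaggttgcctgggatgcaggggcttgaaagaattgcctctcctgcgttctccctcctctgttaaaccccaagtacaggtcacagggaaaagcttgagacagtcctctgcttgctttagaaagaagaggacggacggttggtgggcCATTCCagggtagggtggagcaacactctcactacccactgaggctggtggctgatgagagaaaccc
Igsf1: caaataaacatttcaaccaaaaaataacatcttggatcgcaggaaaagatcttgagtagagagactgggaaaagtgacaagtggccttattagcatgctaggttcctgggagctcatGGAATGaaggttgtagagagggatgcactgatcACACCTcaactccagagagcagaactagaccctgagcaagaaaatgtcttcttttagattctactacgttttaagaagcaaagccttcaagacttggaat
Itgb6: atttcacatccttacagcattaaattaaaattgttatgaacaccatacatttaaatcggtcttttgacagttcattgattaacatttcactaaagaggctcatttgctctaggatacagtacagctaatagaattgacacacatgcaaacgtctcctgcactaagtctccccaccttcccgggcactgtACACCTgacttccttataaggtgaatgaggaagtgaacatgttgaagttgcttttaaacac
Of all 32851 RefSeq windows of this length, 12.6% hold the TEAD core, 6.75% the AP-1 motif and 11.8% the T-box core. The TEAD core was in 3 of the 8 windows of these genes, among them another Igsf1 window, the T-box core in 2 and AP-1 in 1. The FoxO core, spelled TGTTTAC, is in 3.17% of all windows. The GATA motif, searched as AGATAA, is in 9.99%. The element bound by oestrogen-related receptors, AAGGTCA, is in 4.08%, the cyclic AMP response element, TGACGTCA, in 1.55% and the MEF2 box in 3.2%. These last 5 were in none of the 8. None of the motifs overlapped another in a window. The matches are letters in the reference sequence and say nothing of binding. Slc17a7 has a window with no match (chr7:45163671-45163920, plus strand), and Slc36a2 has none here.

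The levels themselves come first, by animal and as the mean of its atria. In bulk atria, fewer cells that express a gene and less RNA per cell cannot be told apart. Lrtm1, a membrane protein with leucine-rich repeats, stood at 7.54, 7.31, 7.89 and 7.03 in the Ntg animals. The Mst1 animals had 5.28, 5.04, 5.29 and 5.20, the dnPI3K animals 5.02, 6.33, 5.60 and 5.44, and the dnPI3K-Mst1 animals 4.93, 5.21, 5.18 and 5.16. All Ntg animals lay above all others, while Mst1, dnPI3K and dnPI3K-Mst1 overlapped. The dnPI3K animals were the most scattered (SD 0.55 against 0.12 in Mst1), and animal 1648 owed its 6.33 to an array at 7.19 with the other at 5.48. The mean difference from Ntg was -2.24 ± 0.20 (SE) in Mst1 and -1.84 ± 0.20 in dnPI3K.

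Mrgprh, an orphan receptor of the Mas-related family, stood at 7.03, 7.07, 6.82 and 6.87 in Ntg. It was 4.90, 4.66, 4.78 and 4.73 in Mst1, and 5.46, 5.94, 5.87 and 5.40 in dnPI3K. The dnPI3K-Mst1 animals had 4.95, 4.54, 4.67 and 4.90. Ntg, dnPI3K and the pair of Mst1-carrying genotypes formed 3 separate steps, and the Mst1-carrying genotypes overlapped. The differences from Ntg were -2.18 ± 0.12 in Mst1 and -1.28 ± 0.12 in dnPI3K.

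Itgb6, the integrin beta 6 chain that pairs with alpha v and frees TGF-beta from its latent form on epithelia, was 7.01, 7.73, 7.37 and 7.42 in Ntg. Mst1 animals had 4.99, 4.604, 5.13 and 5.24, and dnPI3K animals 5.75, 6.19, 6.47 and 6.33. In dnPI3K-Mst1 it was 4.85, 4.68, 4.89 and 4.94. The order was that of Mrgprh, with Mst1 and dnPI3K-Mst1 overlapping at the bottom. The differences from Ntg were -2.39 ± 0.16 and -1.20 ± 0.16.

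Slc36a2, a proton-coupled carrier of glycine, proline and alanine that is also known from brown fat, was 8.005, 8.11, 8.03 and 8.13 in Ntg. Mst1 animals had 5.83, 5.58, 5.94 and 5.79, and dnPI3K animals 6.70, 7.15, 7.002 and 7.16. The dnPI3K-Mst1 animals had 5.73, 5.58, 5.68 and 6.60, the last of them standing apart from the other 3. The differences from Ntg were -2.29 ± 0.16 in Mst1 and -1.07 ± 0.16 in dnPI3K.

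Slc17a7, the vesicular glutamate transporter VGLUT1, was the brightest of the 6 probe sets, at 9.60, 9.77, 9.45 and 9.55 in Ntg. The Mst1 animals had 8.46, 8.64, 8.65 and 8.85, the dnPI3K animals 8.53, 8.35, 8.45 and 7.85, and the dnPI3K-Mst1 animals 8.26, 8.16, 8.51 and 8.62. All Ntg animals lay above all others, and the 3 transgenic genotypes overlapped. Here the larger mean difference belonged to dnPI3K, at -1.30 ± 0.13 against -0.94 ± 0.13 in Mst1.

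Igsf1, a membrane glycoprotein whose loss in people lowers thyroid function through the pituitary, went against the choice. Ntg animals had 5.75, 5.94, 5.97 and 5.53, and Mst1 animals had 5.33, 5.28, 5.64 and 5.69, so these groups overlapped. The dnPI3K animals had 4.41, 4.31, 4.34 and 4.49, below all others, and dnPI3K-Mst1 animals 5.21, 4.78, 4.74 and 4.88. The difference from Ntg was -1.41 ± 0.12 in dnPI3K and -0.31 ± 0.12 in Mst1, and the latter did not pass limma's threshold of 0.05 for the adjusted p. That non-call was not firm: Igsf1 passed when Mst1 1839, Mst1 1840, Ntg 1834 or dnPI3K-Mst1 1509 was left out, with array weights, on Bmp10-high arrays and without the array of Ntg 1301 labelled left, so that 5 to 6 of the 6 genes were called lower in Mst1. By the size of its fall among 15219 tested genes, Igsf1 ranked 4 in dnPI3K but 1854 in Mst1.

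**Figure D1:**
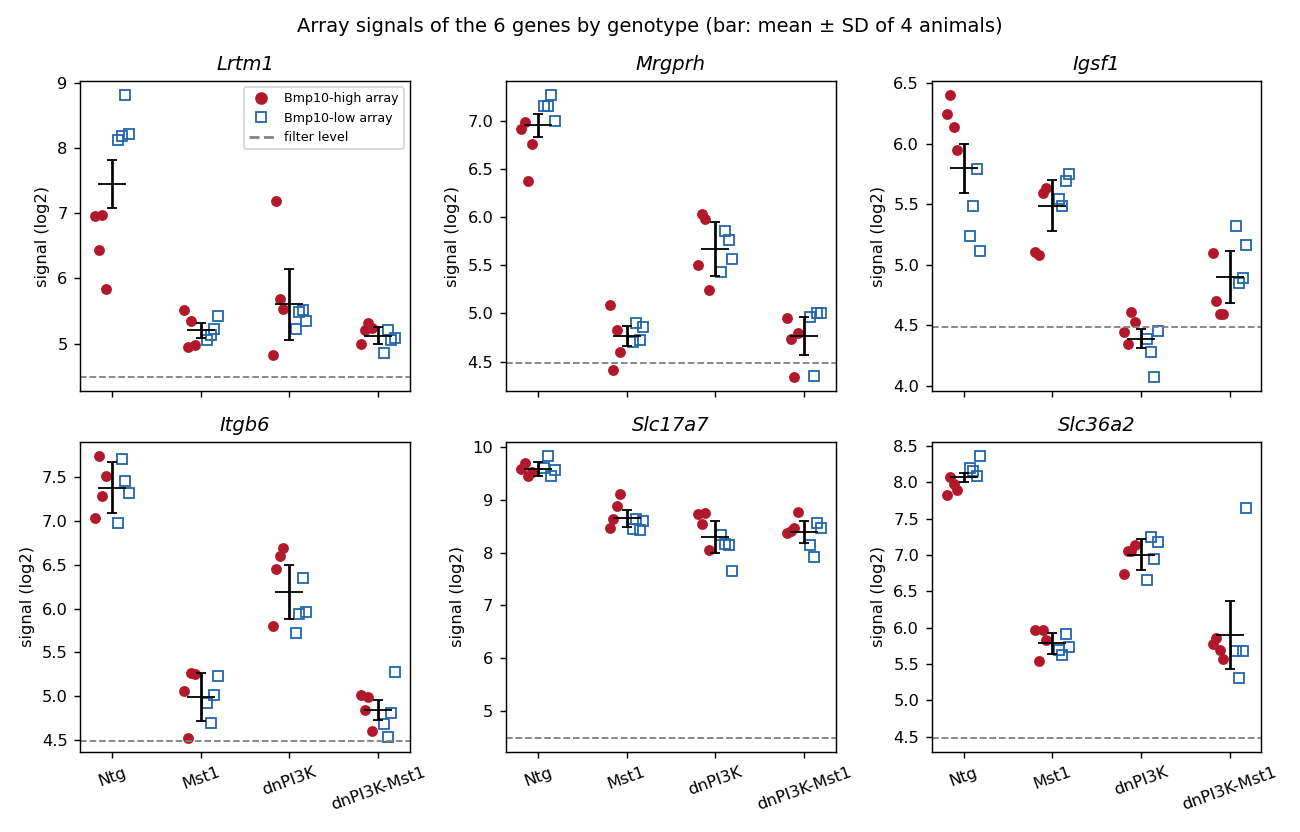
Log2 signal of each gene (y axis, own scale per panel) on the 32 arrays by genotype (x axis). Red circles are the Bmp10-high array and open blue squares the Bmp10-low array of an animal, bars are the mean ± SD of the 4 animals' means, and the dashed line is the filter level of 4.48. Ntg is highest for all 6 genes, Mst1 and dnPI3K-Mst1 lie together for Lrtm1, Mrgprh, Itgb6 and Slc36a2, and Igsf1 is lowest in dnPI3K.

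In Mst1, 5 of the 6 genes passed the threshold as lower, where 14.2% of tested genes did (26.8% in either direction), and in dnPI3K all 6 did, where 2.75% of tested genes did (4.05% in either direction). For the whole table, 320 genes (2.1%) were lower in each of these comparisons, which share their Ntg animals. Among the 15219 genes Lrtm1 ranked 1 by its fall in dnPI3K and 6 by that in Mst1, Itgb6 ranked 14 and 4, Mrgprh 8 and 9, Slc36a2 19 and 5, and Slc17a7 7 and 222. The genes were picked on these comparisons, so the counts and ranks restate the choice and nothing is read from them.

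The choice was by the falls with a single transgene, so the Ntg, Mst1 and dnPI3K animals were part of it. It was also made with earlier results of these data known. The comparisons of dnPI3K-Mst1 below are therefore not independent of the choice. All 6 were lower in dnPI3K-Mst1 than in Ntg (limma, 4 animals against 4), where 14.2% of all tested genes were (30.6% changed in either direction). Itgb6 fell 5.83-fold (-2.54 ± 0.16, adjusted p = 4.9e-10), Lrtm1 5.01-fold (-2.32 ± 0.20, adjusted p = 3.5e-08), Mrgprh 4.54-fold (-2.18 ± 0.12, adjusted p = 9.9e-11) and Slc36a2 4.5-fold (-2.17 ± 0.16, adjusted p = 6.7e-09). Slc17a7 fell 2.3-fold (-1.20 ± 0.13, adjusted p = 8.7e-07). Igsf1 fell 1.86-fold (-0.90 ± 0.12, adjusted p = 7.5e-06), but the call held on Bmp10-high arrays (-1.44 ± 0.15) and not on Bmp10-low arrays (-0.35 ± 0.14, limma adjusted p = 0.068). In each case all 4 dnPI3K-Mst1 animals lay below all 4 Ntg animals.

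Against Mst1 alone, the added dnPI3K transgene lowered only Igsf1 among the 6, where 0.848% of tested genes were lower, 2.65% higher and 3.5% either. Its difference was -0.59 ± 0.12 (limma, adjusted p = 0.0087), without overlap of animals. It did not pass on the Bmp10-high arrays alone (-0.61 ± 0.15, limma adjusted p = 0.052) or on arrays labelled left or right (adjusted p = 0.22 and 0.21). The other genes' differences ran from -0.26 for Slc17a7 (95% interval -0.54 to 0.02) to 0.12 for Slc36a2 (-0.22 to 0.45). Lrtm1 differed by -0.08 (-0.50 to 0.33), Mrgprh by 0.00 (-0.25 to 0.25) and Itgb6 by -0.15 (-0.48 to 0.18). These intervals leave room for changes of up to about 0.54, and they do not show equal levels.

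Against dnPI3K alone, the added Mst1 transgene lowered 3 of the 6, where 8.8% of tested genes were lower and 21.6% changed in either direction. These were Itgb6 (-1.35 ± 0.16, limma adjusted p = 3.7e-06), Slc36a2 (-1.10 ± 0.16, adjusted p = 5.2e-05) and Mrgprh (-0.90 ± 0.12, adjusted p = 1.4e-05), all without overlap of animals. The Slc36a2 call was lost on Bmp10-low arrays (-0.93 ± 0.32, limma adjusted p = 0.055) and on arrays labelled right (adjusted p = 0.070). Igsf1 moved the other way and was higher by 0.51 ± 0.12 (adjusted p = 0.0037), among 12.8% of tested genes that were higher. It did not pass on the Bmp10-high arrays alone (0.26 ± 0.15, limma adjusted p = 0.29). Lrtm1 differed by -0.48 ± 0.20 (limma adjusted p = 0.094, 95% interval -0.89 to -0.07), and by -0.23 without dnPI3K animal 1648. It differed by -0.85 ± 0.17 (limma adjusted p = 0.0027) without the 4 animals whose arrays correlated least. That fit left out dnPI3K 1507 and 3241, so its dnPI3K group was only 1648 (Lrtm1 6.33) and 1660 (5.60). It thus kept the animal whose removal alone gave -0.23. Slc17a7 differed by 0.09 ± 0.13 (adjusted p = 0.67, interval -0.18 to 0.37). The lower of the single transgenic levels was that of Mst1 for Lrtm1, Mrgprh, Itgb6 and Slc36a2, and that of dnPI3K for Igsf1 and Slc17a7. The dnPI3K-Mst1 mean lay within 0.15 of it for 5 genes, and Igsf1 was 0.51 above it.

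If the changes of the single transgenes had added up on the log2 scale, dnPI3K-Mst1 animals would have stood at 3.36 for Lrtm1, 3.48 for Mrgprh, 3.79 for Itgb6, 4.08 for Igsf1, 4.72 for Slc36a2 and 7.35 for Slc17a7. The measured means were 5.12 ± 0.13 (SD), 4.77 ± 0.19, 4.84 ± 0.11, 4.90 ± 0.22, 5.90 ± 0.47 and 8.39 ± 0.21. The difference between measured and summed level, the non-additivity term, was called higher for all 6, against 0.368% of tested genes. It was largest for Lrtm1 (1.76 ± 0.28, SE, limma adjusted p = 0.0047). Mrgprh followed at 1.28 ± 0.17 (adjusted p = 0.0013), Slc36a2 at 1.18 ± 0.23 (adjusted p = 0.018), Itgb6 at 1.05 ± 0.22 (adjusted p = 0.031), Slc17a7 at 1.04 ± 0.19 (adjusted p = 0.011) and Igsf1 at 0.82 ± 0.17 (adjusted p = 0.023). Genes picked for being low in the singly transgenic animals have this term pushed upward by the choice, because those animals enter it, so the count is not independent of the choice. Several of the calls were not firm. With the animal as a random block over 32 arrays, Lrtm1 had an adjusted p of 0.055 and Igsf1 one of 0.084, and leaving out 1 animal at a time ended the call of Itgb6 in 8 of 16 cases and of Igsf1 in 4.

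The filter level of 4.48 is the 30th percentile of all probe sets, not a limit of the scanner: signals on these arrays reach down to 1.16, and Igsf1 itself was below the level on 6 of 8 dnPI3K arrays, with a lowest value of 4.07. As a gauge of signal without expression, 1015 olfactory receptor genes had a median of 3.36 and a 95th percentile of 5.05, and 86.4% lay below 4.48. The summed level was below 4.48 for 4 genes, with a difference of -1.13 for Lrtm1, -0.9997 for Mrgprh, -0.69 for Itgb6 and -0.41 for Igsf1. Slc36a2 had its summed level 0.23 above 4.48, where 8.77% of olfactory receptor genes were brighter, and Slc17a7 had it 2.87 above, where 0.0985% were. The measured means of Slc36a2 and Slc17a7 were 1.18 and 1.04 above the sum. Without the array of dnPI3K-Mst1 1650 labelled right, the value for Slc36a2 was 0.92 ± 0.14.

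For the other 4 genes, the dnPI3K-Mst1 mean stood above the filter level by 0.63 (Lrtm1), 0.42 (Igsf1), 0.36 (Itgb6) and 0.28 (Mrgprh). Mrgprh was below the level on 1 of 8 Mst1 and 2 of 8 dnPI3K-Mst1 arrays, and Lrtm1 and Itgb6 were below it on none. The share of olfactory receptor genes brighter than the dnPI3K-Mst1 mean was 4.14% for Lrtm1, 6.6% for Igsf1, 7.09% for Itgb6 and 7.98% for Mrgprh, against 0.69% for Slc36a2 and 0% for Slc17a7. Raising all values under 4.48 to that level could alter the values of only Mrgprh and Igsf1, since the other genes had no array below it. The term became 1.31 ± 0.16 for Mrgprh, still called, and 0.71 ± 0.16 for Igsf1 (limma adjusted p = 0.056), so 5 genes remained called. The summed levels were not raised, so this count cannot show what the level contributes to the term. Subtracting each array's olfactory receptor median on the linear scale also left 5 called, with Itgb6 at 1.16 ± 0.28 (adjusted p = 0.069), and widened Lrtm1 to 2.07 ± 0.35 and Igsf1 to 1.40 ± 0.24. How low each probe set can read when its transcript is absent was not measured in this series, and its part in the term of these 4 genes was not tested.

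**Figure D2:**
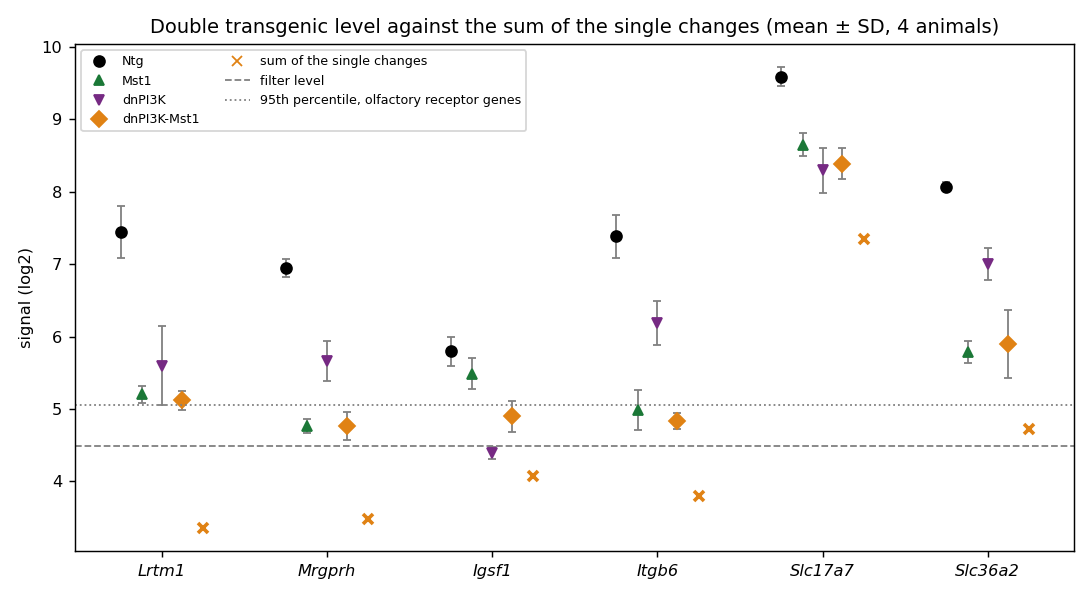
Log2 signal (y axis) of each gene (x axis) in Ntg, Mst1, dnPI3K and dnPI3K-Mst1 (mean, with bars of ± SD over 4 animals), with a cross for the level at which the changes of the single transgenes would add up. The dashed line is the filter level of 4.48 and the dotted line the 95th percentile of olfactory receptor genes, 5.05. All 6 diamonds lie above their cross, and the cross lies under the dashed line for Lrtm1, Mrgprh, Igsf1 and Itgb6 but 2.87 above it for Slc17a7.

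By labelled side, none of the 6 genes differed between atria over the 4 genotypes (limma on the difference within each animal), where 0.00657% of tested genes did. The differences of right minus left ran from -0.16 for Slc17a7 to 0.08 for Slc36a2, and the unadjusted p was 0.011 for Slc17a7 and above 0.05 for the others. No side difference of the 6 depended on genotype by label, where 0% to 0.0131% of tested genes did. Ordered by Bmp10, an ordering chosen after seeing the data, 8.5% of tested genes differed between the atria, and Slc17a7 did too, at 0.22 ± 0.05 higher on the Bmp10-high array (limma adjusted p = 0.0043).

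In Ntg, Lrtm1 was much lower in the Bmp10-high atrium. The Bmp10-high arrays read 6.96, 6.44, 6.97 and 5.84 in animals 1301, 1657, 1662 and 1834, and the Bmp10-low arrays 8.12, 8.19, 8.81 and 8.22. The groups did not overlap, and the difference within animals was -1.78 ± 0.22 (SE, limma adjusted p = 1.2e-05, lower in 4 of 4 animals), where 3.65% of tested genes differed. No such difference was called in the transgenic genotypes, whose means were -0.01 (Mst1), 0.42 (dnPI3K) and 0.13 (dnPI3K-Mst1). Their Lrtm1 levels averaged 5.05 to 5.81 on Bmp10-high and Bmp10-low arrays, near the 95th percentile of olfactory receptor genes, 5.05. Whether a difference between atria could still show at such low levels was not tested. The test of the change in this difference against Ntg gave 1.77 ± 0.31 for Mst1 (limma adjusted p = 0.0029), 2.20 ± 0.31 for dnPI3K (adjusted p = 0.0031) and 1.92 ± 0.31 for dnPI3K-Mst1 (adjusted p = 0.0011), where 1.17%, 0.125% and 0.999% of tested genes passed. On Bmp10-low arrays Lrtm1 thus differed from its Ntg level of 8.33 by -3.13 in Mst1 and -2.94 in dnPI3K, and on Bmp10-high arrays from 6.55 by -1.36 and -0.74. The last of these, -0.74 ± 0.32, did not pass the threshold. The other genes passed as lower in dnPI3K on those arrays, where 0.716% of tested genes did. The genes were picked for their fall in dnPI3K, so nothing is read from this. The Bmp10-high array of dnPI3K 1648, at 7.19, lay above all Ntg Bmp10-high arrays.

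Igsf1 had the opposite arrangement in Ntg. The Bmp10-high arrays of 1301, 1657, 1662 and 1834 read 6.25, 6.403, 6.14 and 5.95, and the Bmp10-low arrays 5.24, 5.48, 5.79 and 5.12, a difference of 0.78 ± 0.12 (limma adjusted p = 0.00019, higher in 4 of 4 animals). In Mst1 the difference was -0.26 and in dnPI3K-Mst1 -0.31, lower on the Bmp10-high array in 4 of 4 animals each, though neither was called by itself (limma adjusted p = 0.33 and 0.40). The change against Ntg was -1.04 ± 0.17 in Mst1 (limma adjusted p = 0.0012) and -1.09 ± 0.17 in dnPI3K-Mst1 (adjusted p = 0.00075). In dnPI3K the Bmp10-high array stayed higher in 4 of 4 animals, by 0.19, and the change against Ntg was -0.59 ± 0.17 (adjusted p = 0.26). On Bmp10-high arrays Igsf1 was thus lower in Mst1 than in Ntg by -0.83 ± 0.15, while on Bmp10-low arrays it was higher by 0.21 ± 0.14, which the mean of the atria, -0.31, does not show.

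The other genes were more even. Itgb6 differed between atria by at most 0.40, in dnPI3K, and by 0.03 in Ntg, and its difference from Ntg in Mst1 was -2.38 on Bmp10-high and -2.41 on Bmp10-low arrays. Slc17a7 was higher on the Bmp10-high array in dnPI3K, by 0.44 ± 0.10 (limma adjusted p = 0.0075, 4 of 4 animals, 4.8% of tested genes called). The same arrays carry the left label in that genotype, and the fit by label gave a limma adjusted p of 0.073 for the same difference. By label 0.999% of tested genes were called, 0.21% lower on the right, as Slc17a7 was, and 0.788% higher. Mrgprh and Slc36a2 were lower on the Bmp10-high array in 4 of 4 Ntg animals, with means of -0.38 and -0.26, without passing the threshold (limma adjusted p = 0.24 and 0.73). A fit on arrays of 1 labelled side mixes Bmp10-high and Bmp10-low arrays in Ntg and Mst1.

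**Figure D3:**
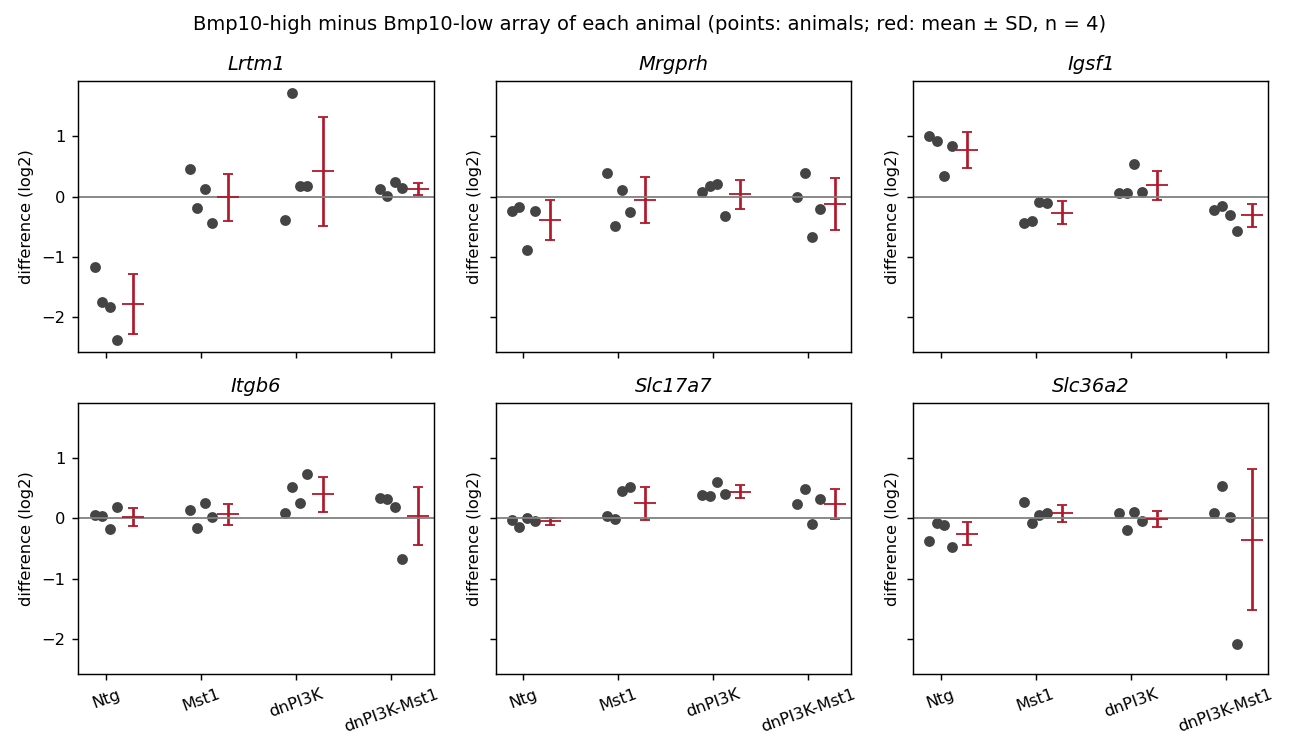
Difference in log2 signal between the Bmp10-high and the Bmp10-low array of an animal (y axis, shared by the panels) by genotype (x axis). Grey points are the 4 animals and red bars their mean ± SD. Lrtm1 lies between -2.38 and -1.17 in Ntg between -0.44 and 0.45 in Mst1 and between 0.01 and 0.25 in dnPI3K-Mst1, and Igsf1 is above 0 in all Ntg and dnPI3K animals and below 0 in all Mst1 and dnPI3K-Mst1 animals.

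The non-additivity term also differed in size by atrium. On Bmp10-low arrays it was 2.79 ± 0.19 for Lrtm1 (limma adjusted p = 2.2e-07), with a summed level of 2.26 (-2.22 from the filter level). On Bmp10-high arrays it was 0.73 ± 0.46 (adjusted p = 0.65), with a summed level of 4.45 and a measured mean of 5.19. The test of the difference between the atria gave -2.06 ± 0.44 (adjusted p = 0.19), so it was not called over all genes, of which 0.0329% were. For Slc17a7, whose summed level lay 2.50 and 3.24 above the filter level in the Bmp10-low and Bmp10-high atria, the term was 1.29 ± 0.21 (adjusted p = 0.0049) and 0.78 ± 0.22 (adjusted p = 0.17). In all, 4 of the 6 were called on Bmp10-low and 2, Igsf1 and Slc36a2, on Bmp10-high arrays, where 0.217% and 0.191% of tested genes were called higher.

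Slc36a2 rests in part on 1 array. On the array of dnPI3K-Mst1 1650 labelled right it read 7.64, against 5.56 on the other array of that animal and 5.31 to 5.85 on all 7 others of the genotype. The same array carried the brown fat gene Ucp1 at 8.93 and the fat genes Adipoq at 7.79, Cidea at 8.56 and Plin1 at 7.51. Ntg 1301 labelled left also carried them (Ucp1 8.38, Adipoq 7.85), while its Slc36a2, 8.19, was within the range of the other Ntg arrays, and Ucp1 lay between 4.27 and 5.09 on the other 30. Without the array of 1650, Slc36a2 differed from Ntg by -2.43 ± 0.10, from dnPI3K by -1.36 ± 0.10 and from Mst1 by -0.14 ± 0.10, and its non-additivity term was 0.92 ± 0.14 (limma adjusted p = 0.0028). The fall of Slc36a2 in Mst1 and dnPI3K does not involve that array, and without the array of Ntg 1301 all 6 genes kept a called non-additivity term. Of 12 listed adipocyte markers 10 were measured and 8 tested, with 3 lower in Mst1 (Aqp7, Plin1 and Pck1), 0 called in dnPI3K and 1 lower in dnPI3K-Mst1 (Aqp7). Their summed linear signal was 551 to 1238 (Ntg), 472 to 527 (Mst1), 551 to 591 (dnPI3K) and 410 to 1291 (dnPI3K-Mst1) by animal. Their part in the Slc36a2 levels was not tested.

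**Figure D4:**
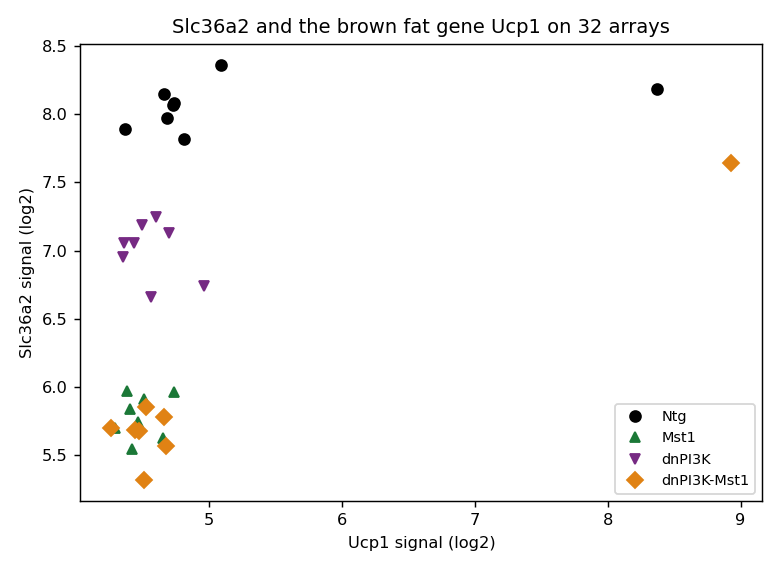
Log2 signal of Slc36a2 (y axis) against that of the brown fat gene Ucp1 (x axis) on each of the 32 arrays, with symbols by genotype. The array of dnPI3K-Mst1 1650 labelled right is far to the right, at 8.93, and above the other arrays of its genotype, and the Ntg array at a Ucp1 signal of 8.38 lies among the other Ntg arrays.

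Markers of other cells that could carry Itgb6 or Slc17a7 were also counted. Of 11 epithelial markers 9 were tested: Krt7 was lower in Mst1 and Krt18 higher in dnPI3K and dnPI3K-Mst1. Their summed signal was 395 to 535 (Ntg), 369 to 450 (Mst1), 444 to 637 (dnPI3K) and 445 to 529 (dnPI3K-Mst1) by animal. Of 13 markers of neurons and ganglia 11 were measured and 8 tested, and Dbh and Phox2a were lower in Mst1 and dnPI3K-Mst1, with differences of -0.24 to -0.38. None of the 8 was called in dnPI3K. The array of dnPI3K 1660 labelled left stood out for the neuronal genes Syt1 (6.94) and Snap25 (6.38), whose medians over the 30 arrays without fat genes were 4.37 and 4.67. It also had the highest Slc17a7 signal of its genotype, 8.75, next to 8.73 on an array of dnPI3K 1507. Without animal 1660, Slc17a7 differed from Ntg by -1.35 ± 0.15 in dnPI3K. Of 7 mesothelial markers 4 were lower in Mst1 and 0 were called in dnPI3K and dnPI3K-Mst1, and of 7 endothelial markers 4 were lower in Mst1 and 0 were called in dnPI3K. The neuronal summed signal was 324 to 420 (Ntg), 321 to 333 (Mst1), 312 to 474 (dnPI3K) and 292 to 358 (dnPI3K-Mst1). The part of these cell types in the levels was not tested.

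Relatives of the 6 genes were counted in lists that leave out the 6 themselves, with no test of a list as a whole. Beside these counts, 14.2% of all tested genes were lower and 12.6% higher in Mst1, 2.75% lower and 1.29% higher in dnPI3K, and 14.2% lower and 16.4% higher in dnPI3K-Mst1. For Lrtm1, 33 other leucine-rich repeat membrane genes were measured and 23 tested, of which 8 were lower and 1 higher in Mst1, 0 lower and 1 higher in dnPI3K, with medians of -0.095 and 0.04 against 0.00 for all genes. Flrt2 was the one that rose, by 0.56 and 0.95. Lrtm1 lies within the span of Cacna2d3, the gene of a calcium channel auxiliary subunit, in the RefSeq annotation. Cacna2d3 averaged 6.35 ± 0.23 (Ntg), 6.08 ± 0.07 (Mst1), 5.29 ± 0.19 (dnPI3K) and 5.65 ± 0.25 (dnPI3K-Mst1). It fell in dnPI3K (-1.05 ± 0.12, limma adjusted p = 3.6e-05) and dnPI3K-Mst1 (-0.70 ± 0.12, adjusted p = 0.00021) and was not called in Mst1, where Lrtm1 had its larger difference. Itgb6 and Slc17a7 overlap the annotated genes Gm33436 and Mir7055.

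For Mrgprh, 3 of 17 measured Mas-related receptors were tested and none was called in any comparison. For Igsf1, 17 genes of its immunoglobulin superfamily list were tested, of which 3 were lower in Mst1, 1 was lower in dnPI3K, and 2 were lower and 4 higher in dnPI3K-Mst1, among them Igsf10 (0.50 ± 0.12) and Igsf3 (0.33 ± 0.08). Igsf23 was lower in Mst1 (-1.01 ± 0.10), dnPI3K (-0.40 ± 0.10) and dnPI3K-Mst1 (-1.14 ± 0.10). Of 14 tested genes of the thyroid hormone axis, 5 were lower and 2 higher in Mst1 and 1 was lower in dnPI3K. Rxrg, a partner of the thyroid hormone receptor, fell from 6.54 to 4.61 in Mst1 and 5.86 in dnPI3K, and Dio2, which makes the active hormone, rose by 1.20 ± 0.18 in Mst1.

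Some of the other integrin genes rose where Itgb6 fell. Of 18 alpha chains, 7 were higher in Mst1 and 11 in dnPI3K-Mst1 with 0 lower, and in dnPI3K 0 were higher and 1 lower. Itgav, the alpha v chain that Itgb6 needs, averaged 8.29 ± 0.06 (Ntg), 8.91 ± 0.30 (Mst1), 8.46 ± 0.16 (dnPI3K) and 9.10 ± 0.13 (dnPI3K-Mst1), and rose in Mst1 by 0.62 ± 0.12 (limma adjusted p = 0.00049). The list of 8 other beta chain genes includes Itgbl1, a beta-like gene rather than an integrin chain. Of these 8, 4 were higher in Mst1 mice, 2 in dnPI3K mice and 5 with both transgenes, with 0 lower in these comparisons. Itgbl1 is counted in each, with rises of 1.40 ± 0.14, 0.82 ± 0.14 and 2.23 ± 0.14. Itgb8, another partner of alpha v that frees TGF-beta, was 6.48 ± 0.12 in Ntg and 7.24 ± 0.14 in Mst1, and Itgb5, a further one, rose by 0.77 ± 0.12 in Mst1. Of 20 tested genes of TGF-beta activation and alpha v beta 6 ligands, 9 were higher and 2 lower in Mst1, 1 and 0 in dnPI3K, and 13 and 1 in dnPI3K-Mst1. Thbs1, which also frees TGF-beta, rose by 2.18 ± 0.27 in Mst1 and 3.02 ± 0.27 in dnPI3K-Mst1, and Ltbp2 by 1.87 ± 0.16 and 2.20 ± 0.16. The medians of this list were 0.25 in Mst1 and 0.43 in dnPI3K-Mst1, against 0.00 and 0.02 over all genes. Of 8 fibroblast markers 2 were higher in Mst1 mice, 2 in dnPI3K mice and 7 with both transgenes, with summed signals of 9011 to 11737 (Ntg), 12170 to 12332 (Mst1), 10321 to 12293 (dnPI3K) and 13265 to 18679 (dnPI3K-Mst1) by animal. Their part in these lists was not tested.

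Among the carriers, 3 of 8 genes of the Slc17 family were tested, and Slc17a9 rose in Mst1 by 0.56 ± 0.10. The 3 other Slc36 genes were not called in any comparison, and Slc36a1 stood between 6.28 and 6.45 in the 4 genotypes. Of 13 tested genes of glutamate handling, 6 were lower and 1 higher in Mst1, and 2 lower in dnPI3K, Asns (-1.38 ± 0.19) and Got2 (-0.37 ± 0.09), which make asparagine and aspartate. Of 26 tested amino acid transporters, 5 were lower and 7 higher in Mst1, and 3 and 2 in dnPI3K. Slc7a7, which exports basic amino acids, averaged 8.52 ± 0.15 (Ntg), 6.78 ± 0.12 (Mst1), 7.56 ± 0.08 (dnPI3K) and 7.03 ± 0.07 (dnPI3K-Mst1). Its non-additivity term was 1.20 ± 0.12 (limma adjusted p = 6.9e-05), the 1 call for that term among these transporters.

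Over the 16 animal means the 6 genes correlated with each other at r = 0.26 to 0.97 (Pearson, 15 pairs), with Mrgprh, Itgb6 and Slc36a2 at 0.96 to 0.97 among themselves and Igsf1 with Slc36a2 lowest. The points share the genotype differences that chose the genes, and once each genotype's mean was taken off, r ran from -0.09 to 0.47. By the same measure, the genes most like each were Clec2l, Rab3a and Atp2b2 for Lrtm1 (r = 0.95), Nt5c1a, Acsl6 and Smco1 for Mrgprh (0.97 to 0.99), and Pla2g5, Cmc2 and Gatd3a for Itgb6 (0.97 to 0.98). They were Ppil1, Gatd3a and Pcca for Slc36a2 (0.97), Gpc1, Map1lc3a and Klhl30 for Slc17a7 (0.94 to 0.97), and Chn1, Arl2bp and Atp8a2 for Igsf1 (0.88 to 0.95). With genotype means taken off, the closest were Cacna1a for Lrtm1 (r = 0.89), Ppp1r14a for Mrgprh (0.91), Nmd3 for Igsf1 (0.87), Gm11517 for Itgb6 (0.84), Zfp672 for Slc17a7 (0.96) and Eif1ad for Slc36a2 (0.86). These are the highest values over all tested genes and are given as a description.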

How the data were processed

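Total RNA of each atrium was hybridised to Affymetrix Mouse Gene 1.0 ST arrays, per the labels' protocols. The values are log2 probe set signals as deposited by the authors, made with Affymetrix Expression Console and PLIER per the submitters' processing notes. Versions, background correction, scaling and log base are not given in the sources used here, and base 2 was taken from the range of 1.16 to 14.1. No further scaling was applied. Each of the 6 genes has 1 probe set; genes with several were represented by the brightest. Genes averaging below 4.48, the 30th percentile of 35512 probe sets, were left out, leaving 15219, and all 6 genes passed.

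Genotypes were compared with limma 3.58.1 (R 4.3.3; lmFit, eBayes with a trend) on the mean of an animal's arrays. Atria were compared on within-animal differences with the trend over the gene's level. Tests were two-sided, p-values were adjusted by Benjamini-Hochberg over all 15219 genes, and a gene was called at an adjusted p under 0.05. The number of animals, 4 per genotype, limits the precision. Named genes besides the 6 are Stk4, Pik3ca, Bmp10, overlapping genes and the 3 most correlated genes. Up to 3 called genes with the largest change per list and comparison are also named. Levels of other list genes were added after their values were seen. The 6 genes and all lists were chosen with earlier results of these data known. The fits were tested on simulated data. As a check of the pairing, the 2 arrays of each animal were set against their genotype and side means, and their residuals correlated with a median of 0.05 (-0.42 to 0.44), over 0.1 in 7 of 16; the shared animal number comes from the labels. Alternatives covered the filter, scaling, spread estimate, left-out animals and arrays, labelled sides, a random block and background; the closing section gives their effect.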

Additional observations from a re-analysis of the deposited data

Results flagged for a closer look

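The non-additivity term, a test of whether one transgene's change differs with the other present, passed for all 6 genes: Lrtm1 1.76, Mrgprh 1.28, Slc36a2 1.18, Itgb6 1.05 (1.045 before rounding), Slc17a7 1.04 and Igsf1 0.82 log2. The choice of the genes pushes this term upward, so the count is not independent of the choice. Of all tested genes 0.368% were called higher. Leaving out 1 animal at a time ended the call of Itgb6 in 8 of 16 cases and of Igsf1 in 4. With the arrays ordered by Bmp10, the difference between the atria changed against Ntg for Lrtm1 by 1.77 (Mst1), 2.20 (dnPI3K) and 1.92 (dnPI3K-Mst1), and for Igsf1 by -1.04 in Mst1 and -1.09 in dnPI3K-Mst1.

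In 48 groups of 4 animals (6 genes, 4 genotypes, the animal mean and the difference between atria), 4 animals stood apart from the others of their group by Dixon's test; chance flags about 1 in 20 groups. The Slc36a2 mean of dnPI3K-Mst1 1650 was 6.60, against 5.58 to 5.73 in the other 3, on the animal whose array labelled right carries fat genes, Ucp1 among them. In the difference of Bmp10-high minus Bmp10-low array, Itgb6 was -0.68 in the same animal against 0.18 to 0.33 in the others. Mrgprh was -0.89 in Ntg 1662 against -0.24 to -0.17. Igsf1 was 0.54 in dnPI3K 1660 against 0.06 to 0.08.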

How the results depend on the processing

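The number of the 6 genes lower in dnPI3K-Mst1 than in Mst1 was 1, and 0 with the filter at the 50th percentile (4 genes left to test, without Igsf1), on arrays labelled left, on arrays labelled right and on Bmp10-high arrays. The number with a called non-additivity term was 6, and 3 without the 4 animals whose arrays correlated at under 0.97, 0 on arrays labelled left, 3 on arrays labelled right and 2 on Bmp10-high arrays; it was 4 with the replicate block (animal as a random block), 4 without the array of dnPI3K-Mst1 1650 labelled right, and 4 to 6 with 1 animal left out. With the replicate block the genes lower in dnPI3K-Mst1 numbered 6 against Ntg, 1 against Mst1 and 3 against dnPI3K, as without it; the side fits with no replicate block called 0 and 0, as the paired fits did. The number differing between labelled sides was 0, but 0 to 1 with 1 animal left out (1 without Mst1 1839) and 1 with arrays ordered by Bmp10. The number whose side difference depended on genotype was 0, but 2 with arrays ordered by Bmp10 and 2 without the 3 animals labelled against Bmp10. The number lower in dnPI3K than in Ntg was 6, where 2.75% of tested genes were lower. On Bmp10-high arrays it was 5, without Lrtm1, where 0.716% of tested genes were lower. The cause of these changes was not tested.

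Some values changed sign. Igsf1 in Mst1 against Ntg was 0.21 on Bmp10-low arrays, against -0.83 on Bmp10-high arrays. In dnPI3K-Mst1 against Mst1, Lrtm1 was 0.0207 on arrays labelled left. There Mrgprh ran from -0.061 to 0.077 with 1 animal left out, and was -0.033 with centred arrays, -0.0060 with quantile normalization, -0.0022 on arrays labelled left, -0.029 on Bmp10-high arrays and -0.024 without the array of 1650. Slc36a2 there ran from -0.12 to 0.22 with 1 animal left out, and was -0.090 on arrays labelled left, -0.10 on Bmp10-high arrays and -0.14 without the array of 1650. In dnPI3K-Mst1 against dnPI3K, Slc17a7 ran from -0.055 to 0.17 with 1 animal left out, and was -0.011 without the 4 animals with low correlation, -0.0091 on arrays labelled left and -0.0091 on Bmp10-high arrays, which are the same arrays there. Of 784 recomputed values of single genes with a test, 719 kept direction and side of the threshold, 45 lost the call, 2 gained it and 18 changed sign. Another 398, mostly the comparisons of Mst1 and dnPI3K with Ntg, were judged by size only: 375 stayed within 1 SD, 22 moved further and 1 changed sign.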
